A study of Mus musculus with 20 samples.

Results

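The core glycolytic enzymes act between glucose phosphate and pyruvate, and 10 genes encoding enzymes of 8 of the steps were chosen by name: Gpi1, Aldoa, Aldoc, Tpi1, Gapdh, Pgk1, Pgam1, Eno2, Eno3 and Pkm. The phosphofructokinase step, between Gpi1 and the aldolases, is not among them. The chosen genes are 10 of the 24862 gene rows counted in each RNA-seq library of mouse TH17 cells, the CD4 T cells that make interleukin-17. The rule itself uses names and no measured value, but the members were chosen with earlier results of these data known. All 10 passed the filter on low counts in each of the 3 comparisons.

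The study sequenced RNA from 6 groups of 2 libraries each, all from C57BL/6 mice. The CNS and ileum groups were GFP+ TH17 cells sorted from cell suspensions of the central nervous system and of the ileum, 50000 cells at a time, and their libraries came from SMART-Seq v4, a kit for low input. The Ad-control and Ad-c-Rel groups were naive CD4 T cells cultured to TH17(β) cells with TGF-β1 at 2 ng/ml and IL-6 at 20 ng/ml, and the labels give no more than the names Ad-control and Ad-c-Rel for the constructs. The miR-21-/- and Control groups were T cells from knockout and control mice cultured to TH17(23) cells with 20 ng/ml each of IL-23, IL-1β and IL-6, prepared with a stranded total RNA kit. All cultures were also stimulated through CD3 and CD28 with antibodies against IL-4 and IFN-γ. The labels do not give the animals' ages, the promoter behind the GFP reporter, the kit of the Ad libraries, or whether replicates were separate animals or cultures, so p-values measure only the spread between these libraries, which may be technical. The series title speaks of miR-21, Peli1 and the NF-κB subunit c-Rel as 1 pathway acting on glycolysis, and the 8 ATAC-seq libraries are not used here.

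Glycolysis splits the sugar into a pair of triose phosphates, oxidises them to make NADH, and returns ATP at the steps of phosphoglycerate kinase and pyruvate kinase. Activated T cells are known to run it at a high rate even with oxygen present, and TH17 cells are known to depend on it, with HIF-1 and Myc as known activators of its genes. HIF-1 binds DNA at sites with the core ACGTG or GCGTG near many glycolytic genes. Flow through the pathway is set mainly at hexokinase, phosphofructokinase and pyruvate kinase, so RNA of the enzymes between them does not measure it.

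Gene counts summed to between 1.54e+07 and 1.99e+07 in the CNS, ileum and Ad libraries and to between 3.28e+07 and 3.67e+07 in the 4 miR-21 libraries. Replicate 2 of each tissue detected fewer genes (11545 in CNS, 10771 in ileum) than replicate 1 (14224 and 13927), and this bears on the weakly expressed members below. The targeted genes went with the labels. Rel, which encodes c-Rel, was at 10.8 and 7.02 CPM (counts-per-million of all gene counts) in Ad-control and at 57.5 and 61.9 CPM in Ad-c-Rel. Mir21a, the precursor gene of miR-21, had 25 and 20 counts in Control and 0 in both knockout libraries, where 3 counts would be 0.0862 and 0.0916 CPM. That limit covers counting error only.

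The sequence upstream of the start site is shown for 4 members, taken from RefSeq (GRCm38.p6) and written 5′ to 3′ on the gene's strand. Tpi1, Pgam1 and Pgk1 had the largest differences between CNS and ileum among the members past the threshold, and Aldoc was the member past it with Ad-c-Rel. Capitals mark ACGTG or GCGTG on either strand. The stretches lie at chr6:124814159-124814408 (minus strand) for Tpi1, chr19:41911621-41911870 (plus strand) for Pgam1, chrX:106186850-106187099 (plus strand) for Pgk1 and chr11:78322823-78323072 (plus strand) for the more upstream Aldoc start, 250 bases each.
Tpi1: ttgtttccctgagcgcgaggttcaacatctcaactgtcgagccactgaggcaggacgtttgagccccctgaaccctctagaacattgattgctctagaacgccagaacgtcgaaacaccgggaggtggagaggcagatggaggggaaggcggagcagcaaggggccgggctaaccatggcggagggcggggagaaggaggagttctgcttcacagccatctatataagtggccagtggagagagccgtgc
Pgam1: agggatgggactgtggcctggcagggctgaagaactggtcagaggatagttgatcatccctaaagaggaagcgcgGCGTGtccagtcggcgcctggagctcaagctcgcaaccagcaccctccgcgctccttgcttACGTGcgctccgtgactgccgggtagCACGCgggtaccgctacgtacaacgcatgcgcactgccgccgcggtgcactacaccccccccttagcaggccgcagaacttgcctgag
Pgk1: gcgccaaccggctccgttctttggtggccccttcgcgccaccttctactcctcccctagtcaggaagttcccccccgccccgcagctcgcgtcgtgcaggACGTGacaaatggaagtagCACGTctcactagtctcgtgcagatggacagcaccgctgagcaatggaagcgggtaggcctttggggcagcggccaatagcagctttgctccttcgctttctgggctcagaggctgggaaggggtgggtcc
Aldoc: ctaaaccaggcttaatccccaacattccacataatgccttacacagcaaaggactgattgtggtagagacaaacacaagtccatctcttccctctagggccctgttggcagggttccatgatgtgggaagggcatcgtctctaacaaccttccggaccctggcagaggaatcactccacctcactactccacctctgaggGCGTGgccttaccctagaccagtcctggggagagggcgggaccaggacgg

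The HIF core stands 3 times in the Pgam1 stretch, 2 times in Pgk1 and 1 time in Aldoc, and its letters are not in the Tpi1 stretch. All 10 members had an entry, with 14 start sites among them. ACGTG was upstream of 5 of the 14 starts, against 16.6% of 32851 promoters of the same length, and GCGTG was upstream of 5, against 28.2%. Either core was at 9 starts in 7 genes (Aldoa, Aldoc, Gapdh, Pgk1, Pgam1, Eno3 and Pkm), against 38.6% of all promoters. The E-box CACGTG, which Myc is known to bind and which contains ACGTG, was at 0 of the 14 starts (6.02% of all promoters), and the κB consensus of NF-κB was at 0 (3.9%). All searches read both strands, and several starts belong to 1 gene. The Aldoa starts with ACGTG have overlapping stretches and hold the same site, which is thus counted more than once. A match is a string of letters, not a measured binding site.

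Together the 10 enzymes took a larger share of gene counts in every cultured library than in any library of sorted cells. Their summed level was 7980 and 8221 CPM in CNS and 4864 and 5171 CPM in ileum. It was 33765 and 32523 CPM in Ad-control and 31801 and 30988 CPM in Ad-c-Rel. The miR-21-/- libraries held 25856 and 29249 CPM and their controls 26725 and 29074 CPM. All 8 cultured libraries thus stood above all 4 tissue libraries, and this also held for each member but Eno3. Tissue origin and culture go together between these sets, as does the kit of the miR-21 libraries, while the kit of the Ad libraries is not given. These factors cannot be told apart, so no test was made across the sets.

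**Figure D1:**
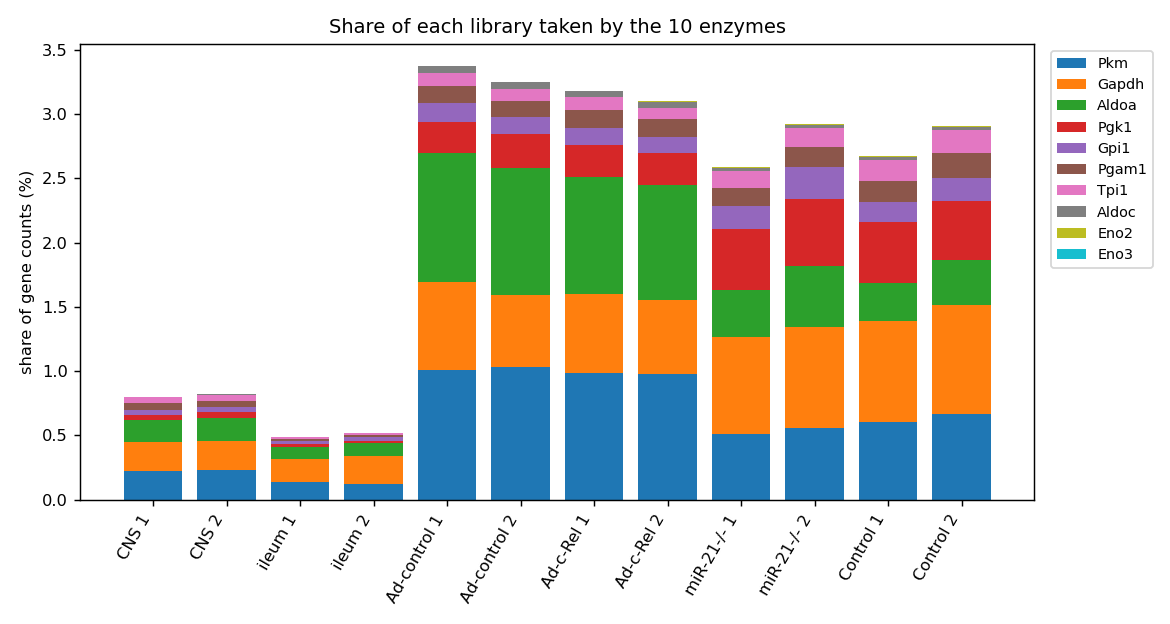
Share of gene counts (percent, y axis) taken by the 10 enzymes in each of the 12 RNA libraries (x axis), with 1 colour per gene. The enzymes held 0.486% to 0.822% of counts in the tissue libraries and 2.59% to 3.38% in the cultured libraries. Segment sizes also depend on transcript length, so segments of different genes are not levels to be compared.

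Gene positions below are on GRCm38.p6, from RefSeq. Gpi1 (chr7:34201327-34230336) encodes glucose phosphate isomerase, which turns glucose phosphate into fructose phosphate at the head of the series. It was at 435 and 413 CPM in CNS and at 269 and 295 CPM in ileum. In culture it was at 1474 and 1319 CPM in Ad-control, 1303 and 1243 CPM in Ad-c-Rel, 1856 and 2473 CPM in miR-21-/- and 1536 and 1867 CPM in Control. The knockout had the highest mean but overlapped its control, and each of the other neighbours in the order (Control, Ad-control, Ad-c-Rel, CNS, ileum) stood apart.

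Aldoa (chr7:126795234-126800994) and Aldoc (chr11:78323073-78327781) encode aldolases, which split fructose bisphosphate. Aldoa, the widely expressed and muscle form, was at 1694 and 1759 CPM in CNS, 920 and 1009 CPM in ileum, 10007 and 9873 CPM in Ad-control, 9108 and 8966 CPM in Ad-c-Rel, 3618 and 4673 CPM in miR-21-/- and 3005 and 3519 CPM in Control. No neighbouring groups overlapped in that order of means. Aldoc, the form best known from brain, was at 18.7 and 33.5 CPM in CNS and at 10.2 and 0.0587 CPM in ileum, where the second value is 1 count. It was at 567 and 579 CPM in Ad-control, 467 and 459 CPM in Ad-c-Rel, 235 and 255 CPM in miR-21-/- and 242 and 278 CPM in Control. The 2 miR-21 groups overlapped, and the other neighbours did not. Aldoc counts were 1.11% and 1.90% of Aldoa counts in CNS, 1.11% and 0.00582% in ileum, and 5.12% to 8.07% in the 8 cultured libraries. All 8 cultured libraries lay above all 4 tissue libraries in this share.

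Tpi1 (chr6:124810586-124814158) encodes triosephosphate isomerase, which converts one triose phosphate into the other so that both can go on. It was at 466 and 468 CPM in CNS, and at 119 and 133 CPM in ileum. The cultures held 989 and 920 CPM in Ad-control, 981 and 919 CPM in Ad-c-Rel, 1298 and 1448 CPM in miR-21-/- and 1615 and 1793 CPM in Control. Both miR-21 groups stood above both Ad groups, which overlapped each other. Gapdh (chr6:125161852-125166467), whose enzyme makes NADH at the next step and is often used as a reference gene, was at 2201 and 2256 CPM in CNS and at 1825 and 2205 CPM in ileum, which overlapped. It was at 6862 and 5600 CPM in Ad-control, 6173 and 5706 CPM in Ad-c-Rel, 7531 and 7895 CPM in miR-21-/- and 7868 and 8438 CPM in Control, with overlap inside each pair and none between the pairs. The miR-21 set could count Gapdh differently from the other sets, as given below.

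Pgk1 (chrX:106187100-106203699) encodes phosphoglycerate kinase, the first step that returns ATP. It was at 409 and 456 CPM in CNS, 190 and 164 CPM in ileum, 2423 and 2604 CPM in Ad-control, 2477 and 2509 CPM in Ad-c-Rel, 4732 and 5286 CPM in miR-21-/- and 4704 and 4563 CPM in Control. The miR-21 set was the highest and the Ad groups overlapped. Pgam1 (chr19:41911871-41918665), the mutase that moves the phosphate within phosphoglycerate, was at 481 and 495 CPM in CNS, 156 and 130 CPM in ileum, 1323 and 1266 CPM in Ad-control, 1413 and 1374 CPM in Ad-c-Rel, 1368 and 1544 CPM in miR-21-/- and 1688 and 1879 CPM in Control. Control was apart from the knockout, which overlapped Ad-c-Rel.

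Eno2 (chr6:124760053-124769673) and Eno3 (chr11:70653125-70662513) encode the neuronal and muscle forms of enolase, which makes phosphoenolpyruvate, and both were weakly counted. Eno2 was at 2.02 and 0 CPM in CNS, where the second library had no count, and at 0.369 and 7.57 CPM in ileum. It was at 17.1 and 13.9 CPM in Ad-control, 18.9 and 16.5 CPM in Ad-c-Rel, 62.5 and 84.5 CPM in miR-21-/- and 39.3 and 49.6 CPM in Control. The tissues overlapped, as did the Ad groups. Eno3 was at 9.99 and 7.28 CPM in CNS, 0.738 and 5.05 CPM in ileum, 4.41 and 5.37 CPM in Ad-control, 4.27 and 2.68 CPM in Ad-c-Rel, 12.3 and 14.8 CPM in miR-21-/- and 11.2 and 10.1 CPM in Control. It was the single member whose CNS mean stood above those of cultured groups, namely both Ad groups. Eno1, the widely expressed enolase, was listed at 0 to 8 counts per library. Its partner entry Eno1b was at 7.19 and 8.74 CPM in CNS, 2.34 and 2.35 CPM in ileum and 15.1 to 40.5 CPM in culture. Neither row is interpreted, since the counting could split reads between them or leave reads that fit both uncounted. Eno2 and Eno3 alone therefore do not give the level of the enolase step.

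Pkm (chr9:59656576-59679372) encodes the pyruvate kinase of T cells, which returns ATP and makes pyruvate, and its counts do not separate the M1 and M2 splice forms. It was at 2265 and 2334 CPM in CNS, 1374 and 1223 CPM in ileum, 10098 and 10344 CPM in Ad-control, 9855 and 9793 CPM in Ad-c-Rel, 5143 and 5576 CPM in miR-21-/- and 6017 and 6679 CPM in Control. No neighbouring groups overlapped. Pkm and the aldolases thus had their highest means in Ad-control, Gpi1, Pgk1, Eno2 and Eno3 in miR-21-/-, and Tpi1, Gapdh and Pgam1 in Control. Ileum had the lowest mean for 9 members and CNS for Eno2. Of the 50 pairs of neighbouring groups over all members, 11 overlapped.

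**Figure D2:**
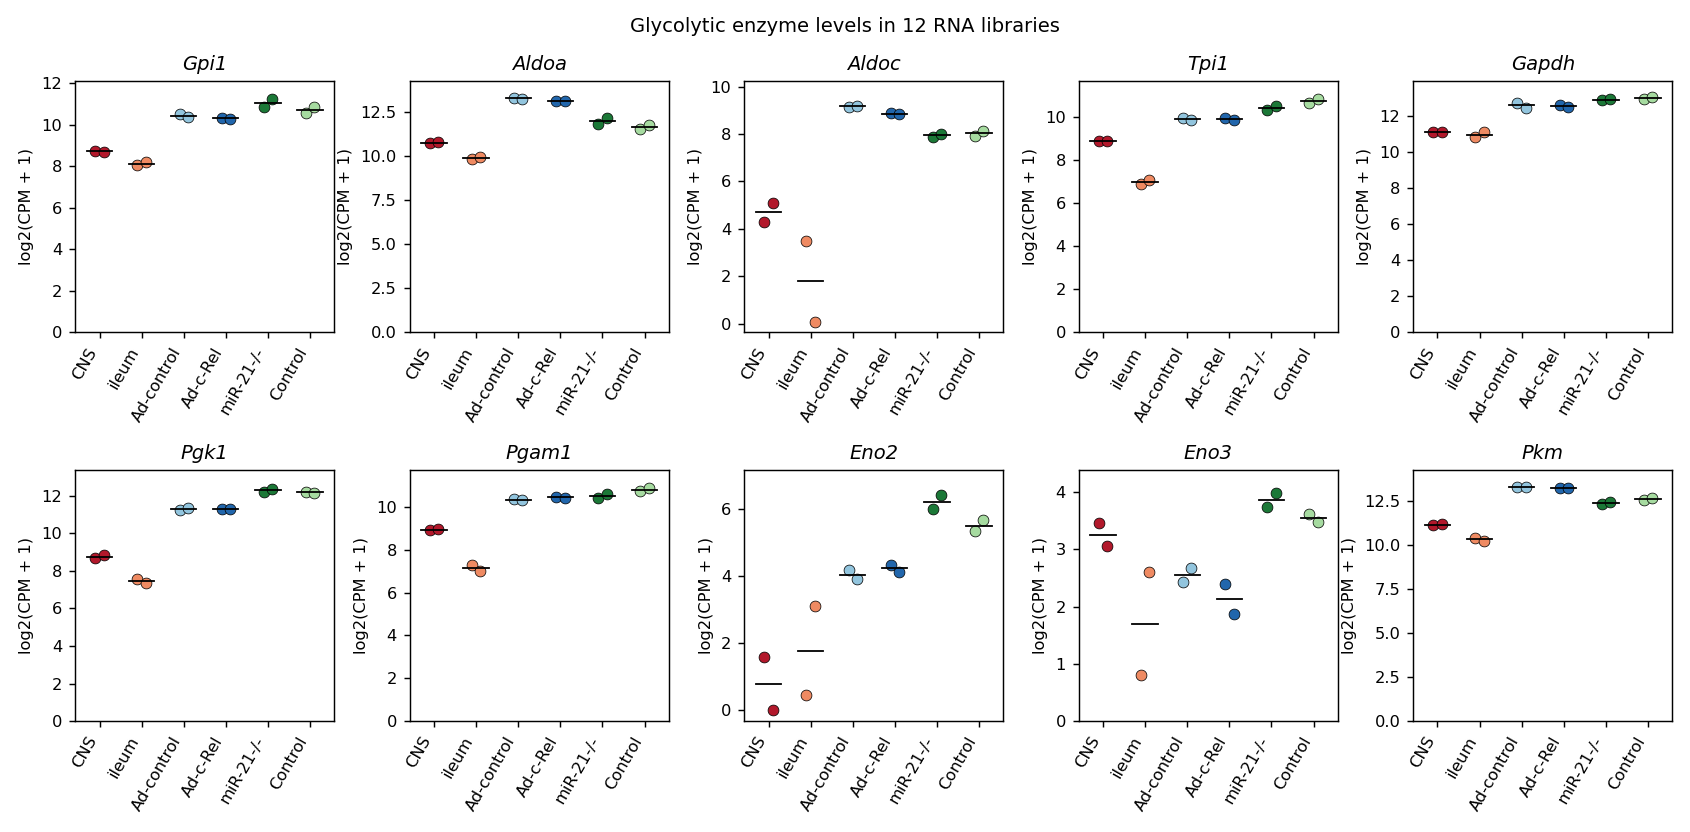
Level of each enzyme in the 12 RNA libraries as log2(CPM + 1) on the y axis, by group on the x axis. Each point is 1 library and each bar the mean of the 2 log values. Aldoc in ileum (10.2 and 0.0587 CPM), Eno2 in both tissues and Eno3 in ileum show wide gaps between replicates, while the points of Tpi1 in CNS (466 and 468 CPM) coincide.

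The CNS against ileum comparison asks how TH17 cells that infiltrated the nervous system differ from those of the gut. Of the 10 enzymes 5 were higher in CNS (Tpi1, Pgam1, Pgk1, Aldoa and Pkm) and 0 were lower. Tpi1 was 3.23-fold and Pgam1 2.97-fold higher, Pgk1 was 2.13-fold higher, and Aldoa and Pkm were 1.56-fold and 1.54-fold higher. Gapdh, which lies between Tpi1 and Pgk1 in the pathway, did not pass the test, with a log2 fold change of −0.05 (95% interval −0.34 to 0.24). Calls are from edgeR's quasi-likelihood F test on the 4 libraries with TMM scaling and a Benjamini-Hochberg adjusted p under 0.05 over all 12038 genes tested, of which 9.66% were called, 4.0% higher and 5.66% lower. With scaling to the library size alone, which moved the median of all genes by 0.20, all genes split into 643 higher and 512 lower in place of 482 and 681, and with scaling to T cell identity genes into 968 and 382.

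Tpi1, at 466 and 468 CPM against 119 and 133 CPM, had a log2 fold change of 1.69 (SE 0.148, 95% interval 1.32 to 2.06, adjusted p = 0.00336 by edgeR). Its libraries did not overlap between tissues, and the gap was many times the spread inside either. Pgam1 came next at 1.57 (SE 0.173, interval 1.14 to 2.01, adjusted p = 0.00684 by edgeR). Both calls held when any 1 library was left out, with adjusted p of 0.0115 to 0.0199 for Tpi1 and 0.0125 to 0.0287 for Pgam1 by edgeR. In those fits the tissue left with 1 library is assumed to vary like the other.

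Pgk1 was higher by 1.09 (SE 0.172, interval 0.66 to 1.52, adjusted p = 0.0195 by edgeR). The call was lost without CNS replicate 2 (adjusted p = 0.0756) and without ileum replicate 2 (adjusted p = 0.0816 by edgeR). Aldoa had a log2 fold change of 0.64 (SE 0.107, adjusted p = 0.0233) and Pkm of 0.62 (SE 0.118, adjusted p = 0.0334 by edgeR). Aldoa was not called in any of the 4 fits that left out a library (adjusted p 0.0582 to 0.112), and Pkm was called only without ileum replicate 1 (adjusted p = 0.0358, against 0.0558 without CNS replicate 1, 0.101 without CNS replicate 2 and 0.107 without ileum replicate 2, by edgeR). Over these fits the log2 fold change was 0.96 to 1.23 for Pgk1, 0.56 to 0.69 for Aldoa and 0.52 to 0.74 for Pkm, so the sizes stayed alike while the calls came and went.

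Gpi1, at 435 and 413 CPM against 269 and 295 CPM, missed the threshold (log2 fold change 0.39, 95% interval 0.05 to 0.73, edgeR adjusted p = 0.161), although its libraries did not overlap and DESeq2 gave adjusted p = 0.00454. DESeq2 called 6 members higher and 0 lower, against 29.5% of all genes. The weakly counted members had intervals too wide to show a direction. Aldoc was at 2.13 (interval −2.32 to 6.57), Eno2 at −2.16 (−8.97 to 4.65) and Eno3 at 1.39 (−1.98 to 4.76). Without ileum replicate 1 Aldoc passed the threshold (adjusted p = 0.0150 by edgeR), a fit in which the remaining ileum library holds 1 count of the gene. Over the 10 members 8 had CNS libraries all above the ileum libraries, as did 38.9% of all genes, and 0 had them all below, as did 21.6% (60.5% in either direction). The members' median log2 fold change was 0.87, beside 0.08 for all genes tested, and at an unadjusted p under 0.05 6 members lay on the higher side and 0 on the lower, against 24.4% of all genes in either direction.

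Ratios within a library do not depend on scaling between libraries. Tpi1 counts were 21.2% and 20.7% of Gapdh counts in CNS, 6.54% and 6.02% in ileum, and 14.4% to 21.3% in the cultured libraries. Pgam1 counts were 21.9% and 22.0% of Gapdh counts in CNS, 8.55% and 5.88% in ileum, and 18.2% to 24.1% in culture. On the Tpi1 and Pgam1 ratios the CNS libraries lay inside the range of the cultured cells, and the ileum libraries lay below it. Origin, culture and, where it is given, kit go together between these sets and cannot be told apart in such ratios. Pkm counts were 103% of Gapdh counts in both CNS libraries, 75.3% and 55.5% in ileum, 147% to 185% in the Ad libraries and 68.3% to 79.2% in the miR-21 set. The miR-21 libraries list no reads with several alignments, so Gapdh, and with it each of these ratios, could be counted differently there than in the other sets. With groups of 2 an exact permutation test on such a ratio cannot pass the threshold, so none was made.

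Transcripts of other cells differed between the same libraries, where 4.0% of all genes were called higher in CNS and 5.66% lower. Of 22 myeloid and microglia markers 21 were higher in CNS, and their summed level was 29026 and 30054 CPM there against 3058 and 3305 CPM in ileum, with none of the markers at 0 in either tissue. The most abundant were Ctss, at 7001 and 7333 CPM in CNS against 484 and 570 CPM, and Lyz2, at 5672 and 5640 CPM against 582 and 708 CPM. Of 11 tested B and plasma cell markers 6 were lower in CNS, where the list summed to 28.7 and 21.9 CPM and Ms4a1, Pax5, Ebf1 and Cr2 were at 0, against 3910 and 3823 CPM in ileum, most of it Jchain (3326 and 3270 CPM) and Sdc1 (266 and 243 CPM). Astrocyte markers summed to 28.6 and 37.0 CPM in CNS and 0.800 and 0 CPM in ileum, and neuron markers to 6.12 and 0 CPM and 0.246 and 1.12 CPM, with 5 of 9 neuron markers (Syt1, Nefl, Map2, Slc17a7 and Gad1) at 0 in CNS. T cell identity genes summed to 5561 and 5664 CPM in CNS and 6778 and 6613 CPM in ileum, with 4 of 12 lower in CNS. In such bulk libraries fewer cells of a type and less RNA per cell cannot be told apart, and the part of these other cells in the enzyme differences was not tested. With the T cell identity genes as the scale, Tpi1 was at 2.14 and Pgam1 at 2.03, and Gpi1 passed the threshold too (adjusted p = 0.0226 by edgeR). This scale raised other genes as well. Gapdh went from −0.05 to 0.40, and 968 of all genes were called higher and 382 lower, in place of 482 and 681. Such a scale removes no transcripts of other cells.

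**Figure D3:**
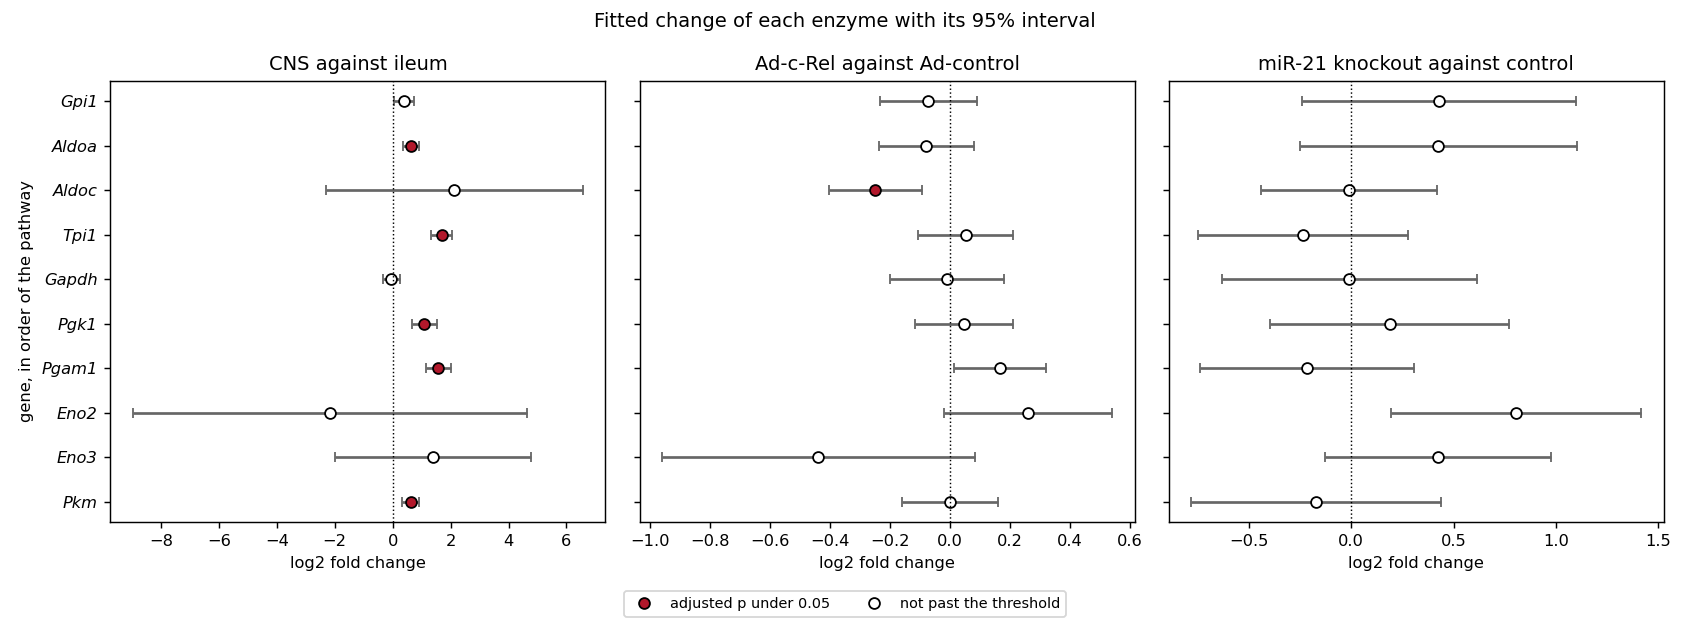
Fitted log2 fold change (x axis, with its own range in each panel) of each enzyme (y axis, in pathway order) in the 3 comparisons, with 95% intervals from edgeR's fit. Filled points passed the adjusted threshold: 5 enzymes on the higher side in CNS, Aldoc on the lower side with Ad-c-Rel, and 0 in the miR-21 knockout.

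Ad-c-Rel against Ad-control asks how the transcripts of TH17(β) cells change when c-Rel is added. Among the 10 enzymes Aldoc was lower, at 0.841 times its control level, and 0 were higher. It was at 467 and 459 CPM with Ad-c-Rel against 567 and 579 CPM, with no overlap (log2 fold change −0.25, SE 0.0724, interval −0.40 to −0.09, adjusted p = 0.0319 by edgeR). The background was 8.16% of 11711 genes called higher and 6.12% called lower, so 1 of 10 called is near it. Scaling to library size alone gave 669 higher and 1027 lower genes in place of 956 and 717. By edgeR the Aldoc call was lost when Ad-control replicate 2 was left out (adjusted p = 0.0734), and likewise for either Ad-c-Rel library (0.145 for replicate 1 and 0.197 for replicate 2). DESeq2 also gave 1 lower and 0 higher members, against 9.38% of all genes, and edgeR called 14.3% of genes in either direction. In one edgeR fit over all 12 libraries, which share 1 estimate of the spread, 0 members and 0 genes of the neighbouring pathway lists were called in this pair, with 18 higher and 1 lower of all genes.

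The strongly counted enzymes had narrow intervals close to 0 in this pair. Pkm was at 0.00 (95% interval −0.16 to 0.16), Gapdh at −0.01 (−0.20 to 0.18), Pgk1 at 0.05 (−0.12 to 0.21) and Tpi1 at 0.05 (−0.11 to 0.21). Gpi1 was at −0.07 (−0.24 to 0.09) and Aldoa at −0.08 (−0.24 to 0.08). For these 6 enzymes log2 changes beyond −0.24 or 0.21 lie outside the intervals of this fit only. In the fit over all 12 libraries their standard errors were larger, from 0.124 for Tpi1 to 0.183 for Gpi1, against 0.074 and 0.076 in the fit on the pair. Pgam1 was at 0.17 (0.01 to 0.32, adjusted p = 0.144 by edgeR), Eno2 at 0.26 (−0.02 to 0.54) and Eno3 at −0.44 (−0.96 to 0.08). The libraries of 5 members did not overlap on the lower side (Gpi1, Aldoa, Aldoc, Eno3 and Pkm), as for 37.3% of all genes, and those of Pgam1 did not on the higher side, as for 21.4% (58.7% in either direction). At an unadjusted p under 0.05 by edgeR 1 member lay on each side, against 28.6% of all genes. The median over the members was −0.00, beside −0.01 over all genes.

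Other genes of the pathway held calls in both directions with Ad-c-Rel, where 8.16% of all genes were called higher and 6.12% lower. The fit over all 12 libraries called 0 genes of the neighbouring pathway lists, so the calls below are from the fit on the pair. Of 8 tested genes of glucose uptake and hexokinases 5 were higher, with the transporters Slc2a6 at 1.02, Slc2a3 at 0.43 (SE 0.0885) and Slc2a1 at 0.36 (SE 0.0726) and the hexokinase Hk2 at 0.55 (SE 0.0989). Of 8 phosphofructokinase genes and regulators Pfkfb3 was higher (0.24) and Pfkm lower (−0.36). Of 12 genes of pyruvate and lactate fate 4 were higher and 1 lower, with the mitochondrial pyruvate carrier Mpc1 at 0.48, the lactate carriers Slc16a1 at 0.35 and Slc16a3 at 0.31, and the kinase Pdk2, which inhibits pyruvate dehydrogenase, at −0.47. Ldha, which makes lactate and was picked after its value was seen, was at −0.02 and was not called. Of 7 regulators Rel itself (2.82), Egln3 (0.41) and Egln1 (0.36), a pair of oxygen-sensing hydroxylases, were higher. Cell cycle genes were lower in 13 of 16 in the same libraries, beside 6.12% of all genes, and their part in these values was not tested.

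The miR-21 knockout against its control asks what loss of that microRNA changes in TH17(23) cells. None of the 10 enzymes was called by edgeR, which called 0.00% of 13428 genes (smallest adjusted p = 0.0625), so the fit has little to say on single genes. That fit has no term for the replicate number, although deviations of same-numbered libraries correlated at 0.66 in this pair. With the number as a block edgeR called genes in both directions, as given at the end. Whether the numbers pair the libraries is not known. At an unadjusted p under 0.05 by edgeR 1 member was higher and 0 lower, against 21.0% of all genes in either direction. DESeq2 called 6.23% of all genes and 1 member, Eno2, on the higher side (adjusted p = 0.0409).

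Eno2 was at 62.5 and 84.5 CPM in miR-21-/- against 39.3 and 49.6 CPM, with no overlap (log2 fold change 0.81, SE 0.247, interval 0.20 to 1.42, adjusted p = 0.172 by edgeR). Over the fits without 1 library its log2 fold change ran from 0.49 to 1.09. With the replicate number as a block Eno2 was called (adjusted p = 4.21e-05 by edgeR), as were many other genes, whose numbers are given at the end. Gpi1 and Aldoa were each at 0.43 (intervals −0.24 to 1.10 and −0.25 to 1.10), Eno3 at 0.43 (−0.13 to 0.98) and Pgk1 at 0.19 (−0.40 to 0.77). Tpi1 was at −0.24 (−0.75 to 0.28), Pgam1 at −0.22 (−0.74 to 0.30) and Pkm at −0.17 (−0.78 to 0.44), while Gapdh and Aldoc were at −0.01. Libraries did not overlap on the higher side for 4 members (Aldoa, Pgk1, Eno2 and Eno3), as for 23.7% of all genes, and on the lower side for 3 (Tpi1, Pgam1 and Pkm), as for 30.6% (54.3% in either direction). The members' median was 0.09, beside −0.02 over all genes tested. The 4 miR-21 libraries list no reads with several alignments, against 2.25% to 3.52% in the others, and members with near-identical pseudogene copies such as Gapdh could be counted differently between these sets but not within the pair.

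In the knockout 0 genes of the neighbouring pathway lists were called by the edgeR fit without a block, while the fit with the block called some in both directions. All 8 tested genes of glucose uptake and hexokinases had fitted values below 0 (median −0.62, beside −0.02 over all genes tested), but none was called without the block. Among them Hk2 was at −0.84 (adjusted p = 0.129) and Slc2a8 at −0.77 (adjusted p = 0.165 by edgeR). The median was −0.30 over the phosphofructokinase genes and regulators, with Pfkl at −0.77 and Pfkfb1 at −0.78. It was −0.14 over the genes of pyruvate and lactate fate, with Slc16a3 at −0.68 and Slc16a1 at −0.43. Rel was at 0.60 and Arnt at 0.39, also not called. In CNS against ileum 4 of the 31 tested genes of these lists were higher, beside 4.0% of all genes. DESeq2 and the 12-library fit each called 10 higher and 2 lower. Of all genes DESeq2 called 1738 higher and 1813 lower, and the 12-library fit 1988 and 2012. By edgeR on the pair 1 of 8 uptake genes (Slc2a6, 2.57), 1 of 7 phosphofructokinase genes (Pfkfb3, 1.30) and 2 of 13 genes of pyruvate and lactate fate (Ldhb, 4.06, and the lactate carrier Slc16a3, 2.29) were higher, and 0 were lower. Hif1a (−0.94), its partner Arnt (−2.44) and Rel (−1.79) were the 3 of 7 regulators that were lower in CNS, beside 5.66% of all genes. Other isozymes of the steps gave 0 calls in each comparison. Among them Bpgm, the bisphosphoglycerate mutase, was at 11.96 to 32.5 CPM over the 12 libraries, and Gapdhs, the sperm form of Gapdh, was at 21.2 to 31.4 CPM in the miR-21 set and at 0 to 11.9 CPM elsewhere. Pgam2, Pklr and Pgk2 were at or near 0, with at most 2.26 CPM for Pgam2, 1 count in all for Pklr and none for Pgk2. Whether any list differed from the 10 enzymes was not tested.

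**Figure D4:**
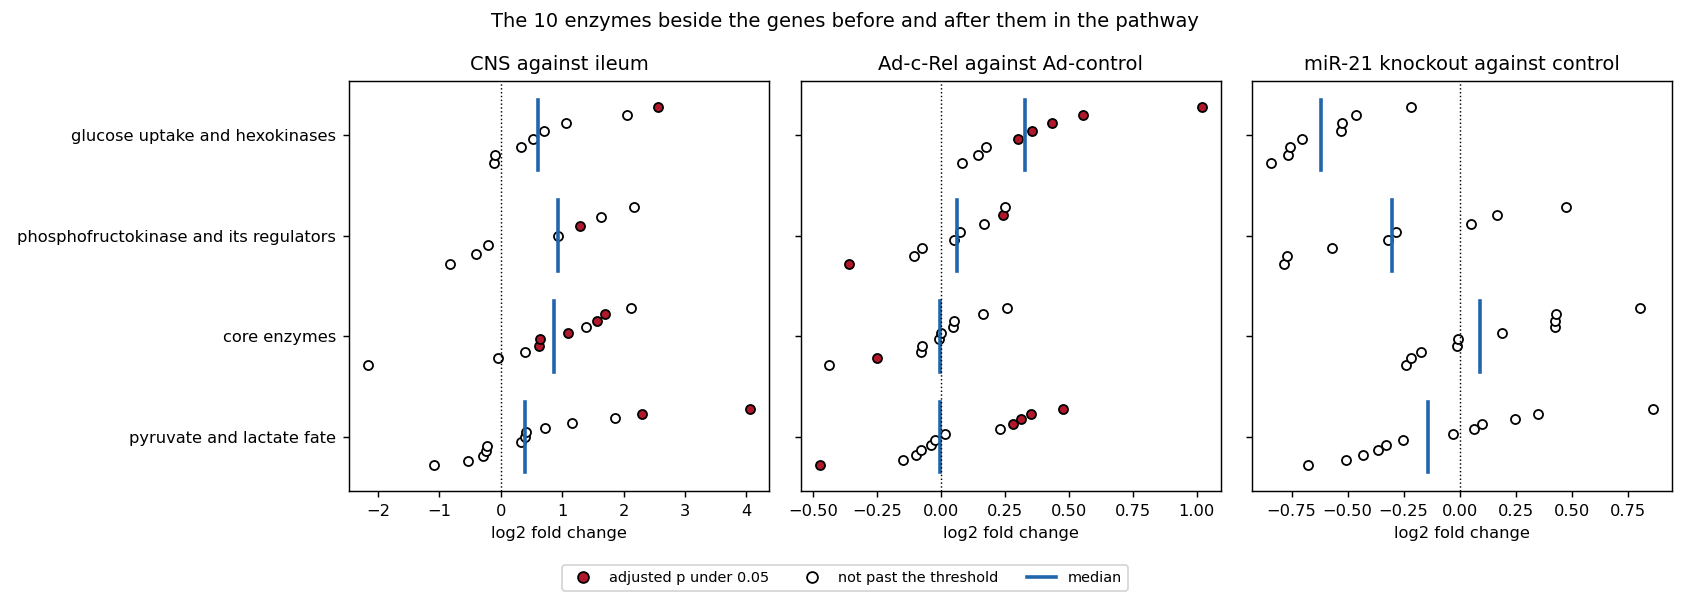
Fitted log2 fold change (x axis, with its own range in each panel) of the 10 core enzymes and of other genes of the pathway (y axis), 1 point per gene tested. Blue bars are medians, which in the uptake list lie at 0.33 with Ad-c-Rel and at −0.62 in the miR-21 knockout, and in the core enzymes at −0.00 and 0.09.

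The enzymes varied alike over the 12 libraries to different degrees. Pearson's r between a member and the mean of the other members, on standardised log2(CPM + 1), was 0.98 for Pgk1 and Gpi1, 0.97 for Pgam1, 0.96 for Tpi1 and Gapdh, 0.89 for Aldoc and Pkm, 0.81 for Eno2, 0.78 for Aldoa and 0.43 for Eno3. The 5 other genes of 10767 tested in all 3 comparisons whose pattern was most like the members' mean were H2-Q10 (r = 0.990), Plp2 (0.990), Igfbp4 (0.989), Eci2 (0.984) and Dusp22 (0.984). These values describe mainly the gap between tissue and cultured libraries. The kit of the miR-21 libraries also differs from that of the tissue libraries, and the kit of the Ad libraries is not given. Of the 5 genes, 0 were among the 5 most alike by Spearman's rho.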

How the data were processed

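The authors deposited 1 table of raw read counts per gene symbol for each of the 12 RNA libraries. Per the submitters' processing notes, which give no roles, the tools were DESeq2, HTSeq 0.11.0, HOMER, TopHat2 2.1.0, SAMtools, Bowtie2, Trim Galore 0.4.4 and CASAVA 1.4, and the build was mm10. Annotation and strand setting: not given in the sources used here. Lines naming no gene (14.7% to 26.1% of each total) stayed out of library sizes and tests. Levels are counts divided by the library's gene counts (CPM). For each pair, edgeR 4.0.16 (R 4.3.3) was run on the 4 libraries of that pair (filterByExpr, TMM, quasi-likelihood F test, two-sided, Benjamini-Hochberg over all genes tested, threshold 0.05), a procedure tested on simulated data. Standard errors were derived from F and the log2 fold change, so they restate that test. DESeq2 1.42.0, other scalings, filters, pooled and blocked fits and fits without each library were alternatives.

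All 10 members are named. Other isozymes with counts are named with their levels. Of each other pathway list up to 4 called genes of smallest p are named, or the 2 of smallest p where none is called. Of lists of other cell types the summed level, the 2 most abundant genes and genes at 0 are named, and of similar genes the 5 with the highest Pearson r. Some genes of these lists are not reported here. The 15 gene lists and the members were chosen with earlier results of these data known. Promoters came from RefSeq (GRCm38.p6). Transcript lengths were not used here, so levels are not compared between genes.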

Additional observations from a re-analysis of the deposited data

How the results depend on the processing

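With fits that leave out 1 library, the enzymes called higher in CNS numbered 2 to 5 and those lower stayed at 0, and the members' median was 0.67 to 1.05. That median was 1.07 with library size scaling and 1.32 with T cell identity scaling. The 4 other pathway lists together had 4 genes higher and 0 lower in CNS: higher genes numbered 10 with DESeq2, 7 with library size scaling, 9 without a filter, 9 with at least 10 counts in every library, 10 in one fit over all 12 libraries and 9 with T cell identity scaling (1 to 6 with 1 library left out), and lower genes 2 with DESeq2, without a filter, with at least 10 counts and over all 12 libraries (0 to 1 with 1 library left out). With Ad-c-Rel, the 12-library fit gave 0 lower enzymes in place of 1 and 0 higher and 0 lower genes of those lists in place of 10 and 2; leaving out a library gave 0 to 1 lower enzymes, 6 to 7 higher list genes and 1 to 2 lower ones. In the miR-21 knockout, DESeq2 gave 1 higher enzyme and 3 lower list genes in place of 0, and leaving out a library gave 0 to 1 of each. With the replicate number as a block, 8 list genes were higher and 2 lower in CNS, 1 enzyme was higher with Ad-c-Rel (Pgam1), and in the knockout 1 enzyme (Eno2, adjusted p = 4.21e-05 by edgeR) and 3 list genes were higher and 14 list genes lower, with 2287 higher and 2520 lower of all genes in place of 0. Deviations of same-numbered libraries correlated at 0.08 (CNS and ileum), 0.11 (Ad) and 0.66 (miR-21). No label ties a number to an animal or a day, so whether the numbers pair the libraries is not known. Signs turned only for values near 0 or of Eno2 that were not called. These were Gapdh in CNS (0.15 with library size scaling, 0.40 with T cell identity scaling), Tpi1, Pgk1, Pkm and Bpgm with Ad-c-Rel (−0.0069, −0.012, −0.057 and −0.019 with library size scaling), Pkm also without a filter and over all 12 libraries (−0.011 and −0.0094), and Aldoc and Gapdh in the knockout with DESeq2 and RLE factors (0.0030 and 0.0074 with either) and with the 12-library fit (0.0038 and 0.0083). Leaving out a library turned Gapdh in CNS (−0.16 to 0.065), Eno2 in CNS (−9.21 to 1.20), Gapdh (−0.13 to 0.13), Pgk1 (−0.021 to 0.12), Pkm (−0.033 to 0.036) and Bpgm (−0.0080 to 0.076) with Ad-c-Rel, and Aldoc (−0.15 to 0.14) and Gapdh (−0.12 to 0.12) in the knockout. The summed level was 5708 CPM in ileum, 31119 CPM in Ad-control and 30484 CPM in Ad-c-Rel with TMM over the 12 libraries. Over all settings the calls among all genes ran from 205 to 1988 higher and 380 to 2012 lower in CNS (482 and 681 as reported) and from 18 to 1488 higher and 1 to 1314 lower with Ad-c-Rel (956 and 717). In the knockout DESeq2 called 347 higher and 489 lower, and edgeR without knockout replicate 1 called 608 and 618. The cause of these shifts was not tested. Of the enzymes' single-gene values under all alternatives 294 kept direction and side of the threshold, 13 lost a call, 7 gained one and 24 changed sign. Low counts or wide gaps between replicates limit Eno2, Eno3 and tissue Aldoc. The tissue libraries with 0 Eno2 counts (CNS replicate 2) and 1 Aldoc count (ileum replicate 2) were the deeper of their group but detected fewer genes.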
